A study of Mus with 8 samples.

Results

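The platelet-derived growth factor (PDGF) family was followed here through its 4 ligand genes, Pdgfa, Pdgfb, Pdgfc and Pdgfd, and its receptor genes Pdgfra and Pdgfrb. Members were chosen by name: every non-control array probe whose RefSeq accession belongs to one of the 6 genes was taken, which gave 7 of the 56605 probes. Pdgfa had 2 probes and each other member had 1. All 6 genes passed the filter on dim signals, as did 16068 of the 22911 named genes on the array.

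Pan02 cells, a pancreatic cancer line from the mouse, had been transplanted under the skin, and 8 tumours were measured. Control hosts (4 tumours) were wild-type B6 mice. Mutant hosts (4 tumours) were B6 mice with the genotype Ext1 flox/flox; S100a4-Cre, in which the recombinase is driven by S100a4 and acts on a gene needed to polymerise heparan sulfate. Tumours were removed 36 to 40 days after transplantation, RNA of each whole tumour was labelled with Cy3 and hybridised to 1 Agilent array, and the groups were compared to ask how tumours differ when these host cells lose the enzyme. S100a4 is active in fibroblasts and also in some other stromal cells. By this design the transplanted cancer cells and host cells without the recombinase should keep Ext1, but recombination was not measured here. Since Control hosts were wild-type, loss of Ext1 cannot be told apart from the presence of the recombinase or the floxed alleles. In whole-tumour RNA, fewer cells of a type and less RNA per cell cannot be told apart. Each level is a log2 signal with the 75th percentile of its array set to 0. A difference is the mean Mutant level minus the mean Control level, and levels of different probes are not set against each other.

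PDGF ligands are secreted as dimers that bring together receptor tyrosine kinases at the cell surface. PDGF-A and PDGF-B are cut to their active form inside the cell, whereas PDGF-C and PDGF-D carry a CUB domain that has to be removed by proteases outside it. The alpha receptor answers mainly to PDGF-A and PDGF-C, and the beta receptor to PDGF-B and PDGF-D. In many tissues endothelial PDGF-B holds pericytes, which carry the beta receptor, on capillaries, while the alpha receptor marks fibroblast populations. PDGF-B and the long form of PDGF-A end in a basic stretch that binds heparan sulfate and keeps the secreted protein near the cell.

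An array had 61.5% to 67.2% of its probes well above background, no spot was saturated, and arrays correlated across genes with r of 0.926 to 0.991 within a group and 0.929 to 0.989 between groups. The Ext1 probe differed by 0.07 and S100a4 by 0.24, with limma adjusted p = 1.00 for each. The position of that probe relative to the floxed exon is not known here, so its level does not check the genotypes. Of the 9 epithelial markers looked for, Krt8, Krt18, Krt19, Krt7, Cdh1, Msln and Muc1 were well above background on all arrays. Epcam and Cldn4 did not pass the filter on dim signals. Of the 7 measured, 2 differences were above 0 and 5 below. Krt8 (-0.53) and Krt18 (-0.47) were at a limma unadjusted p under 0.05, and 0 passed adjustment. Across all 16068 genes limma called 0 (0%) at an adjusted p under 0.05, and 467 genes (2.91%) were at an unadjusted p under 0.05, of which 301 (1.87%) were higher and 166 (1.03%) lower in Mutant tumours.

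Among the PDGF genes, Pdgfc read higher in tumours of Mutant hosts by 0.49, or 1.40-fold, and was the member with an unadjusted p under 0.05. The other 5 members differed by -0.23 to 0.22, each by less than 1 pooled within-group SD. None of the 6 (0%, as over all genes) had an adjusted p under 0.05, the limma value being 1.00 for every member, and the Control and Mutant levels overlapped in all 6 members, where 1.42% of all genes showed no overlap (0.716% higher and 0.703% lower in Mutant tumours). Differences lay above 0 for 2 members, Pdgfc and Pdgfrb, and below 0 for 4, beside 52.4% of all genes above 0.

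**Figure D1:**
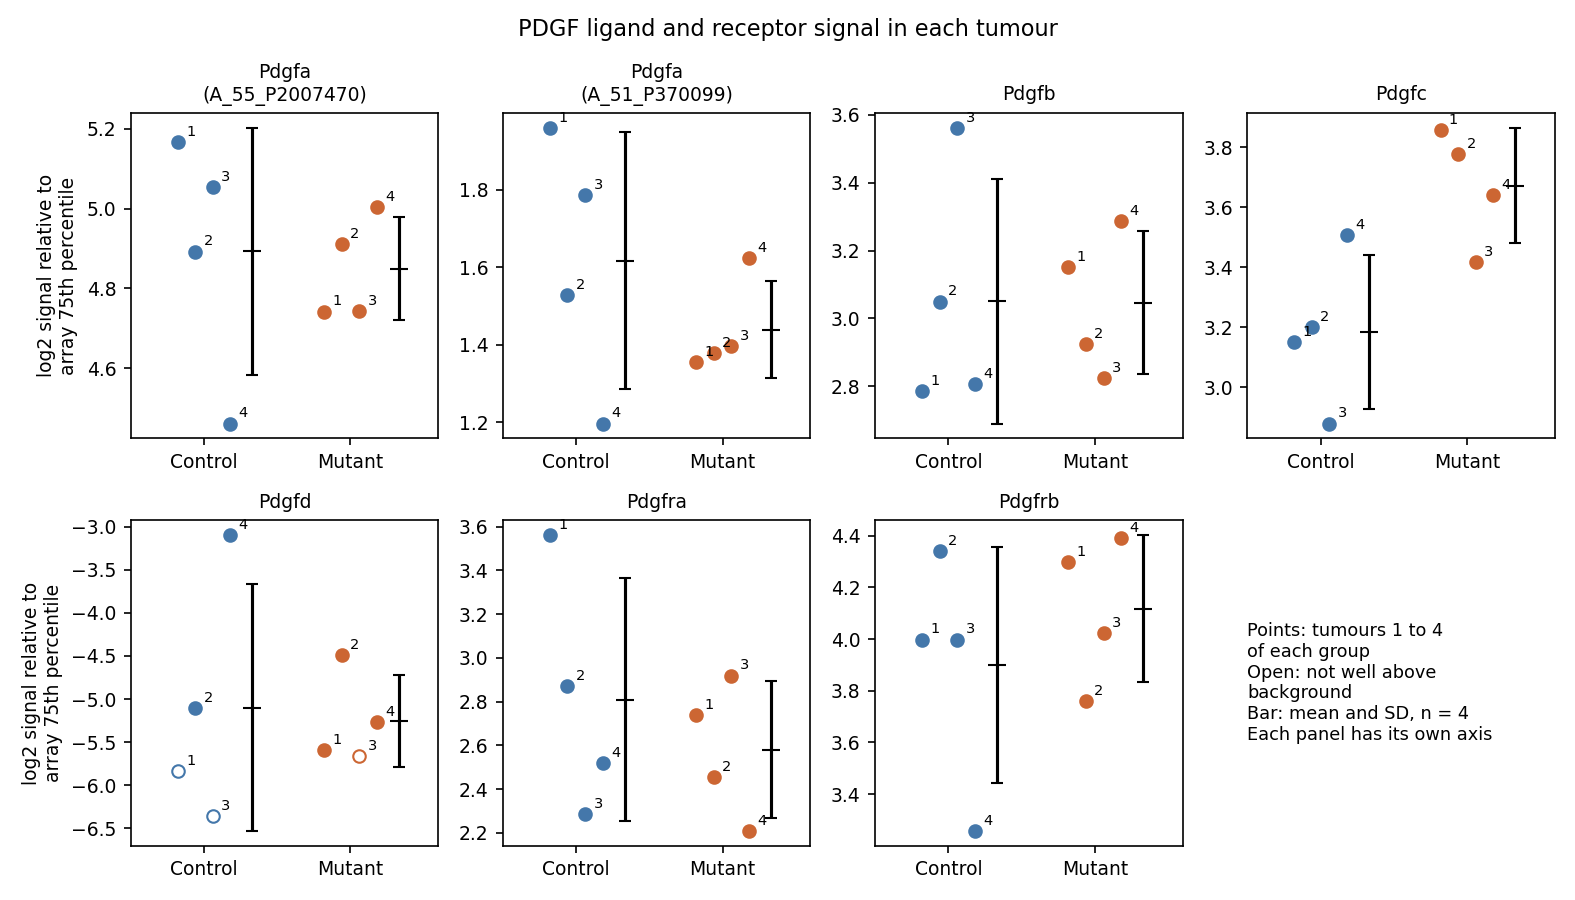
Log2 signal relative to the array's 75th percentile for each of the 7 member probes, with 1 point per tumour, numbered by replicate, and the mean and SD of the 4 tumours of each group beside them. Mutant 1, 2 and 4 lie above every Control tumour for Pdgfc, and Control 4 stands low for Pdgfa and Pdgfrb and high for Pdgfd.

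Pdgfc, whose product is a ligand of the alpha receptor that is activated outside the cell, was at 3.15, 3.20, 2.88 and 3.51 in Control 1 to 4. In Mutant 1 to 4 it was at 3.86, 3.78, 3.42 and 3.64. Mutant 1, 2 and 4 thus lay above all Control tumours, and Mutant 3 lay below Control 4 and above the other Control tumours. The group means were 3.18 ± 0.26 and 3.67 ± 0.19 (SD, n = 4 each). The difference was 0.49 (SE 0.16), with a 95% interval of 0.11 to 0.87, which is 1.08 to 1.82 as a fold. By limma the unadjusted p was 0.0174, the rank was 114 among all genes and the adjusted p was 1.00. The two-sided exact permutation p was 0.0571, where 4 against 4 tumours can reach 0.0286. A difference of at least this size in either direction was seen in 1509 genes, 9.39% of those tested.

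The Pdgfc difference was above 0 under every alternative tried, though the dim-probe filters, the averaging of probes and the balanced blocks could not move it. It ranged from 0.39, without Control 3, to 0.60, without Control 4, when single tumours were left out, and its unadjusted limma p then ranged from 0.00474, without Control 4, to 0.0509, without Mutant 1. Within slide row 1 the difference was 0.64, and within slide row 2 it was 0.34, each over 2 Control and 2 Mutant tumours.

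Skeletal muscle markers and hypoxia genes each lay to one side of 0 in the same comparison, and neither list level passed a test between the groups. All 14 skeletal muscle markers measured were above 0, and their level, the mean log2 signal of the list's genes after centring each gene on its mean over the 8 tumours, ran from -3.07 to 0.17 in Control and from -0.92 to 2.84 in Mutant tumours (two-sided exact permutation p = 0.0857). Hypoxia and glycolysis genes were below 0 in 16 of 16 measured, with levels of 0.07 to 0.74 in Control and -0.61 to 0.34 in Mutant tumours (two-sided exact permutation p = 0.114). With the muscle level as a covariate the Pdgfc difference was 0.41 (95% interval -0.18 to 0.99, limma unadjusted p = 0.143). With the hypoxia level as a covariate, a setting added after the data were seen, it was 0.20 (95% interval -0.20 to 0.61, limma unadjusted p = 0.277). With the fibroblast marker level as a covariate it was 0.50 (0.26 to 0.75, limma unadjusted p = 0.00172, adjusted p = 0.959). In that last fit 746 of all genes were at an unadjusted p under 0.05, beside 467 without a covariate. The part of muscle tissue or of oxygen supply in the Pdgfc values was not tested beyond these fits.

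**Figure D2:**
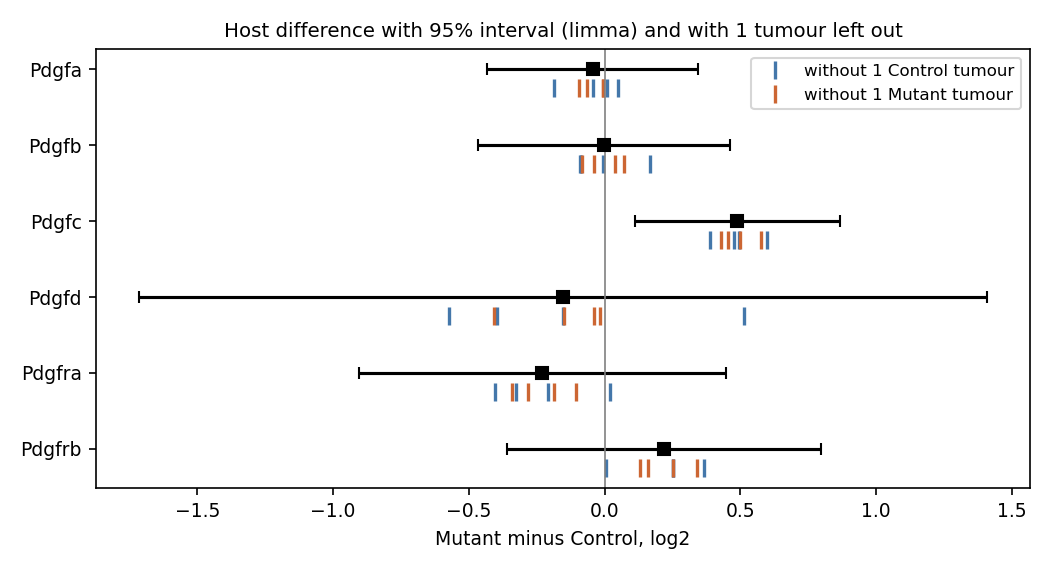
Mutant minus Control difference in log2 signal for each member, with its 95% interval from limma (squares and lines) and, below each, the difference with 1 Control or 1 Mutant tumour left out (ticks). The interval of Pdgfc runs from 0.11 to 0.87, and those of the other 5 members include 0.

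Pdgfa, the gene of the main alpha receptor ligand and a product of many epithelial and tumour cells, was at 5.17, 4.89, 5.05 and 4.46 in Control 1 to 4 on probe A_55_P2007470. In Mutant 1 to 4 it was at 4.74, 4.91, 4.74 and 5.003. Control 4 was lowest and Control 1 highest, and all Mutant tumours lay between them. The means were 4.89 ± 0.31 and 4.85 ± 0.13 (SD, n = 4 each), and the difference was -0.04 (95% interval -0.43 to 0.35) with a two-sided exact permutation p of 0.80. On the other probe, A_51_P370099, Control 1 to 4 were at 1.96, 1.53, 1.78 and 1.20 and Mutant 1 to 4 at 1.35, 1.38, 1.40 and 1.62. Both probes placed Control 1 highest and Control 4 lowest. The second probe gave a difference of -0.18 with an interval of -0.59 to 0.23 (two-sided exact permutation p = 0.40).

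Pdgfb, which encodes the ligand of both receptors and is made by endothelial cells and platelets among others, differed by -0.0041 between the groups. It was at 2.79, 3.05, 3.56 and 2.81 in Control 1 to 4 and at 3.15, 2.92, 2.82 and 3.29 in Mutant 1 to 4. Control 3 was the highest of the 8 tumours, and the Mutant range lay inside the Control range. The means were 3.05 ± 0.36 and 3.05 ± 0.21 (SD, n = 4 each). The 95% interval of the difference, -0.47 to 0.46, allows folds of 0.723 to 1.38 (two-sided exact permutation p = 1.00). Without Control 3 the difference was 0.17.

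Pdgfd, the beta receptor ligand that is activated outside the cell, was the only member not well above background on every array, with 2 of 4 Control and 3 of 4 Mutant arrays above it. Control 1 to 4 were at -5.83, -5.10, -6.36 and -3.10, with Control 1 and 3 not well above background. Mutant 1 to 4 were at -5.59, -4.49, -5.66 and -5.26, with Mutant 3 not well above background. Control 4 stood highest, followed by Mutant 2. The difference was -0.15 with a 95% interval of -1.72 to 1.41 (two-sided exact permutation p = 0.886), and without Control 4 it was 0.51. Its pooled within-group SD, 1.08, was larger than that of 91.9% of all genes, whereas the other members lay between the 40.3rd and the 74.0th percentile.

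Pdgfra, the alpha receptor, was at 3.56, 2.87, 2.29 and 2.52 in Control 1 to 4 and at 2.74, 2.45, 2.92 and 2.21 in Mutant 1 to 4. Control 1 was highest, Mutant 4 lowest, and the remaining tumours of both groups were interleaved. The means were 2.81 ± 0.56 and 2.58 ± 0.31 (SD, n = 4 each), 0.853-fold, with an interval of 0.535 to 1.36 as a fold (two-sided exact permutation p = 0.514). Without Control 1 the difference was 0.02 in place of -0.23.

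Pdgfrb, the beta receptor and a usual marker of pericytes and fibroblasts, was at 4.00, 4.34, 4.00 and 3.26 in Control 1 to 4. In Mutant 1 to 4 it was at 4.30, 3.76, 4.02 and 4.39. Control 4 was the lowest of the 8 tumours, and the rest overlapped. The means were 3.90 ± 0.46 and 4.12 ± 0.28 (SD, n = 4 each), 1.16-fold with an interval of 0.780 to 1.74 (two-sided exact permutation p = 0.486). Without Control 4 the difference was 0.01 in place of 0.22.

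The slide held its arrays in 2 rows with 2 tumours of each group in each, and the differences within a row were not alike in sign for 5 members. Pdgfa differed by -0.20 in row 1 and 0.12 in row 2, and Pdgfb by 0.12 and -0.13. For Pdgfd the values were 0.43 and -0.73, for Pdgfra -0.62 and 0.16, and for Pdgfrb -0.14 and 0.58. With the row as a block the estimates were the same as without it, since the rows are balanced, and the limma adjusted p stayed at 1.00 for each member.

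The SD over the 4 tumours was smaller in Mutant than in Control hosts for all 6 members, as it was for 79.7% of all genes. Leaving out Control 4, it was smaller in Mutant tumours for 4 of 6 members, not for Pdgfc and Pdgfrb, and for 61% of all genes. No test was made of the spread.

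None of the 15 pairs of members had a correlation over the 8 tumours with an adjusted p under 0.05. By Pearson correlation Pdgfa with Pdgfd lay farthest from 0, with r = -0.73 (exact permutation p = 0.0440, adjusted over the 15 pairs 0.458; rho = -0.60, exact permutation p = 0.132, adjusted 0.513). Without Control 4 and Control 1, the tumours farthest from the Pdgfa median, r was -0.14. It was -0.28 without Control 4 alone and -0.72 without Control 1 alone, so the relation rests on Control 4. By Spearman correlation Pdgfb with Pdgfra lay farthest from 0 (rho = -0.71, exact permutation p = 0.0576, adjusted 0.513; r = -0.63, exact permutation p = 0.0917, adjusted 0.458), with r = -0.30 without Control 3 and Mutant 4. Pdgfc with Pdgfd gave r = 0.44 and rho = 0.57 (exact permutation p = 0.287 and 0.151, adjusted 0.538 and 0.513), with r = 0.43 without Control 3 and Mutant 1 and r = 0.80 after the group means were removed. Pdgfra with Pdgfrb gave r = 0.07 and rho = -0.12 (exact permutation p = 0.867 and 0.793, adjusted 0.928 and 0.882), and r was 0.49 without Control 1 and Mutant 4. Pdgfb with Pdgfra, given above, is also a ligand with a receptor it binds. The other matched pairs of ligand and receptor gave r = 0.22 for Pdgfa with Pdgfra, -0.24 for Pdgfc with Pdgfra, 0.46 for Pdgfb with Pdgfrb and -0.71 for Pdgfd with Pdgfrb. Their exact permutation p values were 0.588, 0.583, 0.257 and 0.0615, adjusted 0.678, 0.678, 0.538 and 0.458. Spearman's rho for the same pairs was -0.10, -0.26, 0.60 and -0.21 (exact permutation p = 0.84, 0.536, 0.132 and 0.619, adjusted 0.882, 0.882, 0.513 and 0.882). Without the 2 tumours farthest from the ligand's median, r was -0.84, -0.84, 0.66 and 0.82, so 2 of the 4 signs turned. A slide row holds 4 tumours, too few for a correlation within it.

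**Figure D3:**
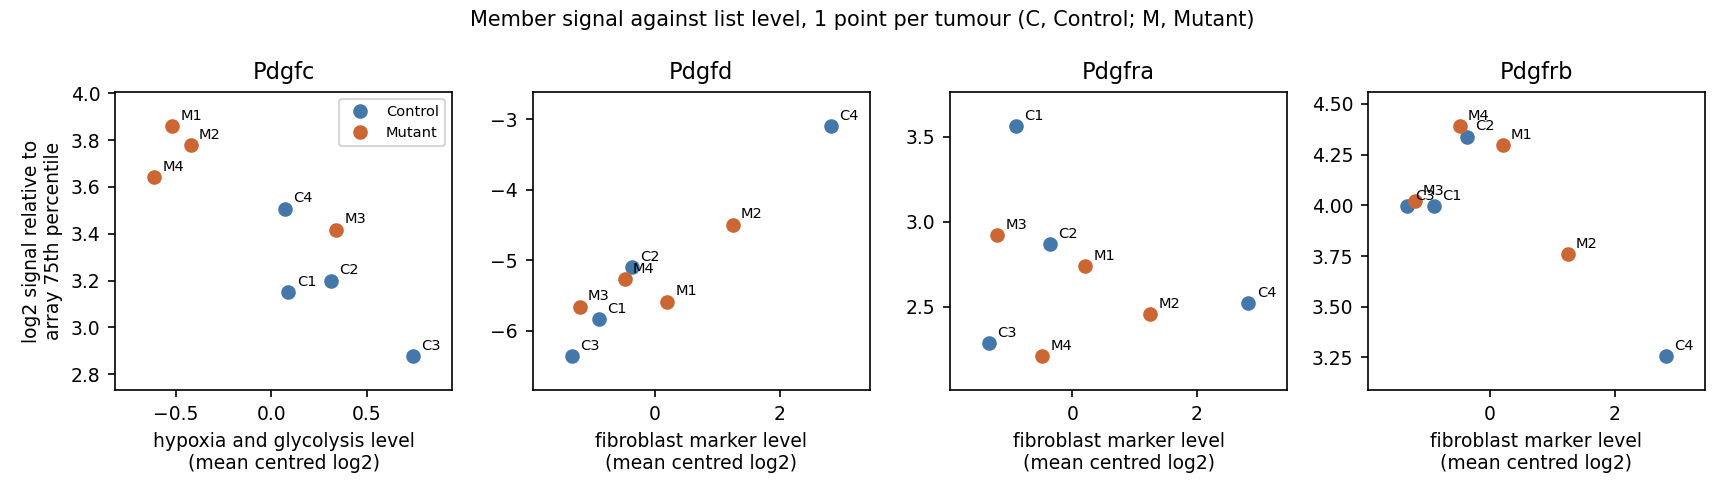
Log2 signal of Pdgfc against the hypoxia and glycolysis level, and of Pdgfd, Pdgfra and Pdgfrb against the fibroblast marker level, with 1 point per tumour. Pdgfc falls from left to right, Pdgfd rises with Control 4 at the upper end, and Pdgfrb is lowest in Control 4, which has the highest fibroblast level.

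The receptors were set against the fibroblast markers across tumours. The fibroblast level, over 15 measured markers such as Col1a1, Lum and Fap, ran from -1.33 to 2.82 in Control and from -1.20 to 1.25 in Mutant tumours, with Control 4 highest and Mutant 2 next. Pdgfra had r = -0.26 with it (exact permutation p = 0.511; rho = -0.12, exact permutation p = 0.793). Pdgfrb had r = -0.73 (exact permutation p = 0.0442; rho = -0.33, exact permutation p = 0.428), and r was 0.81 without Control 4 and Mutant 2, so its sign rests on those tumours. Pdgfrb had r = -0.43 with the pericyte level (exact permutation p = 0.287; rho = -0.36, exact permutation p = 0.389). These belong to 42 relations, of the 6 members with 7 list levels, that were added after the data were seen. Adjusted over all 42, the Pearson p of the receptors was 0.802, 0.221 and 0.669 and the Spearman p 0.876, 0.746 and 0.711 in the same order.

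Pdgfd and Pdgfc had the relations farthest from 0 among the 42, and none of the 42 was under 0.05 after adjustment. Pdgfd read higher where the fibroblast level was higher (r = 0.95, exact permutation p = 0.00151, adjusted 0.0632; rho = 0.90, exact permutation p = 0.00456, adjusted 0.0958), with r = 0.63 without Control 4 and Mutant 2. It had r = 0.85 with the pericyte level (exact permutation p = 0.00322, adjusted 0.0632; rho = 0.90, exact permutation p = 0.00456, adjusted 0.0958), and this was 0.84 without Control 3 and Control 4. With the platelet level it had r = 0.86 (exact permutation p = 0.0104, adjusted 0.109; rho = 0.83, exact permutation p = 0.0154, adjusted 0.161), and r = 0.60 without Control 3 and Control 4. Control 1, Control 3 and Mutant 3, where Pdgfd was not well above background, had the lowest fibroblast levels. The low end of that relation is thus signal near background. Pdgfc read lower where the hypoxia level was higher (r = -0.89, exact permutation p = 0.00451, adjusted 0.0632; rho = -0.83, exact permutation p = 0.0154, adjusted 0.161), with r = -0.86 without Mutant 4 and Control 3. After the group means were removed from both, the Pdgfc relation with hypoxia was r = -0.79. After the same step Pdgfc had r = 0.88 with the fibroblast, 0.76 with the platelet and 0.69 with the pericyte level. The smooth muscle, skeletal muscle and endothelial levels gave 0.44, 0.21 and 0.03. With the group means kept, the fibroblast relation was r = 0.52 (exact permutation p = 0.190, adjusted 0.499), with rho = 0.69 (exact permutation p = 0.0694, adjusted 0.416). Pdgfb had r = 0.02 with the endothelial level (exact permutation p = 0.969, adjusted 0.969; rho = 0.19, exact permutation p = 0.665, adjusted 0.798), and r = -0.43 without Control 2 and Mutant 4.

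Genes whose levels tracked a member most closely over the 8 tumours, among 14756 genes with an ordinary name, are given as a description, since the highest of many correlations is high by choice and all genes share the arrays. For Pdgfa they were Myef2 (r = 0.97) and Trim59 (0.97), and for Pdgfb they were Rap1gap2 (0.99) and Zfand3 (0.99). Lpin3 and Selenom (0.98 each) were closest to Pdgfc. Pdgfd was closest to Gng11 and Tshz3 (0.99 each) and had 465 genes above r = 0.9, the highest number of any member. Its signal was well above background on 2 of 4 Control and 3 of 4 Mutant arrays, and Control 4 stood 2.08 above its mean over the tumours. Pdgfra was closest to Vps39 (0.96) and Snx24 (0.95) and had 19 genes above 0.9. Pdgfrb was closest to the noncoding RNA Halr1 (0.99) and to Sos1 (0.98), an exchange factor that activates Ras below receptor tyrosine kinases, with 176 genes above 0.9. For Pdgfrb, Control 4 was at -0.75 from the mean over the tumours. How far the counts for Pdgfd and Pdgfrb rest on Control 4 was not tested.

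Lists of genes that act around the PDGF receptors had medians near that of all genes, with single genes farther from 0 and no call. Of 11 proteins that cut or bind PDGF outside the receptor, 5 were above 0 and 6 below, 0 were at an unadjusted p under 0.05, and the median difference was -0.08, beside 0.01 over all genes. The proprotein convertase Pcsk6 had means of 2.69 ± 1.31 (Control) and 1.48 ± 0.69 (Mutant; SD, n = 4 each), which differ by -1.21 (SE 0.66). Nrp1, a coreceptor of several growth factors, differed by 0.40 and the convertase Pcsk7 by 0.09. Plat, the tissue plasminogen activator that activates PDGF-C, differed by -0.25, and Plau, the urokinase that activates PDGF-D, by -0.16.

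**Figure D4:**
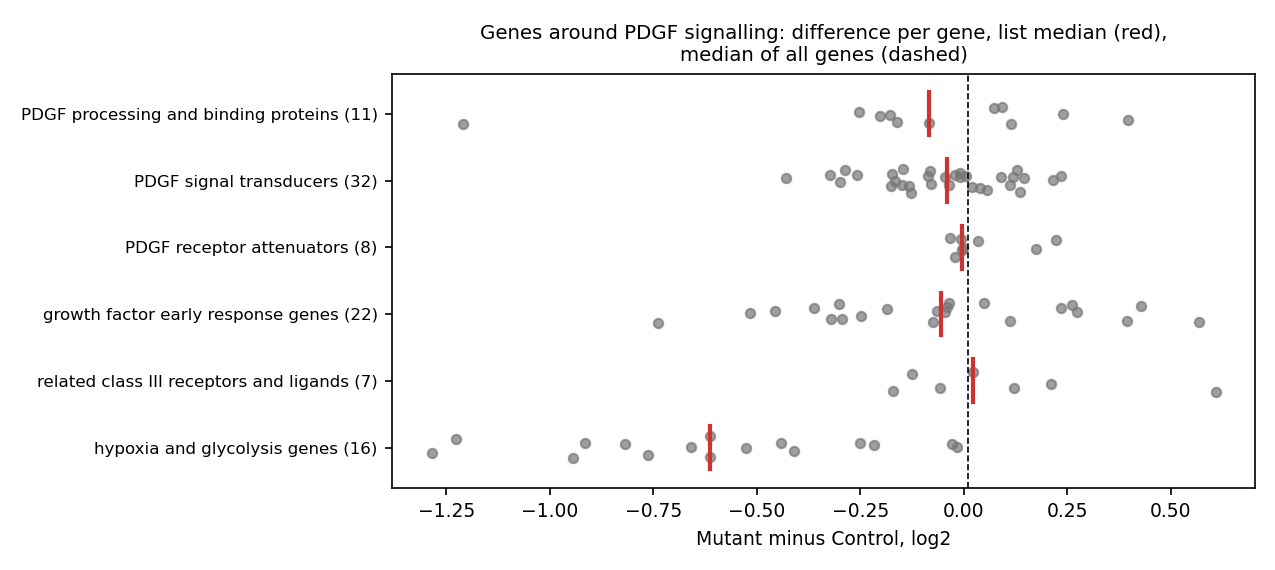
Mutant minus Control difference in log2 signal for each measured gene of 6 lists (points; number of genes in brackets), with the median of each list in red and that of all genes dashed. The first 5 list medians lie between -0.08 and 0.02, and that of the hypoxia and glycolysis genes lies at -0.61.

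Among 32 adaptors, kinases and other transducers below the receptors, 12 were above 0 and 20 below, beside 52.4% of all genes above 0. None was at an unadjusted p under 0.05, and the median was -0.04. The list level ran from -0.015 to 0.11 in Control and from -0.064 to -0.0080 in Mutant tumours (two-sided exact permutation p = 0.0857). The adaptor Crkl had means of 1.97 ± 0.11 (Control) and 2.19 ± 0.11 (Mutant; SD, n = 4 each; limma unadjusted p = 0.0758). The transcription factor Stat5a differed by -0.30 and Pik3ca, the catalytic subunit of a phosphoinositide kinase, by -0.43. Of 8 attenuators of the receptors 3 were above 0 and 5 below, with a median of -0.0032. Ptpn1, a tyrosine phosphatase that removes phosphate from PDGF receptors, averaged 4.14 ± 0.07 in the Control group against 4.37 ± 0.02 in the Mutant group (SD, n = 4 each), 1.17-fold. It was the attenuator with an unadjusted p under 0.05 (limma unadjusted p = 0.0326, adjusted p = 1.00), and its groups did not overlap, as in 0.716% of all genes in this direction. The ubiquitin ligase Cblb differed by 0.17 and Rasa1, a GTPase activator of Ras, by 0.03.

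Early response genes, many of which growth factors such as PDGF switch on within minutes, were spread on both sides of 0. Of 22 measured 8 were above 0 and 14 below, 0 were at an unadjusted p under 0.05, and the median was -0.05. Ier3 had means of 1.20 ± 0.60 (Control) and 0.46 ± 0.41 (Mutant; SD, n = 4 each; limma unadjusted p = 0.0562). The AP-1 subunits Junb and Jun differed by -0.19 and -0.32. Of the 7 genes of the related class III receptors and their ligands 4 were above 0 and 3 below, with a median of 0.02. In that list the ligand Il34 differed by -0.12, the receptor Flt3 by 0.61 (SE 0.83), and the receptor Kit by 0.21.

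The hypoxia and glycolysis list, measured beside Pdgfc, had 6 of 16 genes at an unadjusted p under 0.05, all lower, beside 1.03% of all genes in that direction, and a median of -0.61, with 0 genes passing over all genes tested. P4ha1, a collagen prolyl hydroxylase, averaged 0.69 ± 0.25 against 0.077 ± 0.14 (SD, n = 4 each) in the Control and Mutant groups, Ankrd37 differed by -1.29 and the histone demethylase Kdm3a by -0.53 (limma adjusted p = 1.00 for each). The list was written with earlier results of these data known, so its direction is no separate evidence.

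No marker of the cells that carry or make PDGF was called over all genes. At a limma unadjusted p under 0.05 were the fibroblast marker Pi16 (-1.94), the pericyte marker Des (2.10), the endothelial marker Flt1 (-0.49) and the platelet marker Gp9 (1.33). Differences were above 0 for 5 of 15 fibroblast, 6 of 9 pericyte, 11 of 14 endothelial and 3 of 8 platelet markers. Flt1 and Gp9 thus went against most of their lists. The pericyte markers other than Des ran from -1.05 to 0.36. Over all genes 1.87% were higher and 1.03% lower at this limit. No smooth muscle or macrophage marker reached it. The Gp9 groups did not overlap, as in 0.716% of all genes in this direction, with 2 of 4 Control arrays well above background. Median differences were -0.06 over 15 fibroblast, 0.11 over 9 pericyte, 0.66 over 5 smooth muscle, 0.09 over 14 endothelial, -0.10 over 8 platelet and 0.10 over 11 macrophage markers. The list levels overlapped between the groups for each of these lists, with two-sided exact permutation p values of 0.914, 0.571, 0.229, 0.629, 0.629 and 0.771 in that order. Skeletal muscle markers had a median of 2.80 over 14 genes, epithelial markers -0.47 over 7, adipocyte markers 0.31 over 4 and Schwann cell markers -0.29 over 6. Of the skeletal muscle markers 9 were at a limma unadjusted p under 0.05, all higher, beside 1.87% of all genes in that direction. None of them passed adjustment. The muscle list too was written with earlier results of these data known, so its direction is no separate evidence. Vtn, Lmod1, Synpo2, Gp5, Gp6, Adipoq, Cidec, Plin1 and Cdh19 did not pass the filter on dim signals. Csf1r is on the macrophage list and among the class III receptors. The part of these cells in the members' values was not tested beyond the covariate fits.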

How the data were processed

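The scanner files were made with Agilent Feature Extraction, version 10.7.3.1 per the file headers and 9.1 per the submitters' processing notes. The deposited processed signal is a linear intensity, per the file headers, and its values show no scaling between arrays; the background method is not given in the sources used here. The deposited flag columns have no unit (other). The authors' deposited value table is linear intensity too: 99.5% of its probes equal the processed signal within the tolerance used (0.01%), so scale is known, no centring was seen, and no direction is involved. RNA was labelled from 0.5 ug per tumour, per the labels' protocols.

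Flagged outlier spots (66 to 117 per array) were dropped and spots of a probe averaged. Log2 signals were centred on each array's 75th percentile. A probe had to be well above background on 4 or more of the 8 arrays, and the brightest such probe represented its gene. Gene names came from RefSeq accessions through a GRCm38.p6 gene table (58.3% of probes matched); the array design names another build, so no coordinates are given. The main model was fitted in R 4.3.3 with limma 3.58.1, with group as its only term and Benjamini-Hochberg adjustment over 16068 genes. Single values were compared by two-sided exact permutation over 70 arrangements. Arrays give no count depth, and 4 tumours per group limit precision. Tumours were treated as separate animals, as the design text gives 4 per group. The members and lists were chosen with earlier results of these data known. Named genes are all members, Ext1, S100a4, the 3 genes of smallest p in each pathway list and the 2 genes of highest Pearson r with each member. Plat, Plau, the epithelial markers, the other markers named for an unadjusted p under 0.05 and those given as examples were named after their values were seen. Alternatives covered background correction, normalization, centring, dim-probe filters, probes, the value table, blocks, covariates and left-out tumours. The model was tested on simulated data in which each gene varied independently, so the test does not cover genes that vary together over tumours. Figures used Python 3.11.15 and matplotlib 3.10.9.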

Additional observations from a re-analysis of the deposited data

Results flagged for a closer look

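On the second Pdgfa probe, A_51_P370099, Mutant 4 read 1.62, apart from the other Mutant tumours at 1.35 to 1.40, a gap of 0.23 that took up a share of 0.846 of the group's range, above Dixon's 95% critical value. This was 1 of 14 groups looked at, and chance flags about 1 in 20. On the other Pdgfa probe Mutant 4 was also the highest of its group, at 5.003, and was not set apart.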

How the results depend on the processing

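No member passed an adjusted p under 0.05 under any setting, and limma called 0 genes in each. Pdgfc kept its direction under 21 of 21 alternatives, from 0.20 to 0.60. Among these, the dim-probe filters, the mean of the gene's probes and the blocks left it at 0.49. They could not move the estimate, since Pdgfc has 1 probe and the blocks are balanced. With 1 tumour left out at a time, Pdgfa ranged from -0.19 to 0.048, Pdgfb from -0.092 to 0.17, Pdgfc from 0.39 to 0.60, Pdgfd from -0.57 to 0.51, Pdgfra from -0.40 to 0.021 and Pdgfrb from 0.0059 to 0.37. Signs turned for Pdgfa without Control 1 (0.048) or Control 3 (0.010), for Pdgfb without Control 3 (0.17), Mutant 2 (0.037) or Mutant 3 (0.070), with quantile normalization (0.011) and with the hypoxia level as a covariate (0.075), for Pdgfd without Control 4 (0.51), and for Pdgfra without Control 1 (0.021). With the muscle level as a covariate Pdgfd was at 0.14 and Pdgfrb at -0.087, and with the hypoxia level as a covariate Pdgfd was at -0.95. Pdgfd gave no value when all 8 arrays had to be above background. Genes at an unadjusted p under 0.05 numbered 467, but 135 with the muscle and 746 with the fibroblast covariate, 305 without Control 1, 972 without Control 2, 195 without Mutant 1 and 257 without Mutant 4; the cause was not tested. Same-numbered tumours had deviations from their group means that correlated at -0.31 to 0.08. These values show no likeness by number, but they cannot exclude that tumours were paired in handling. With the replicate block the differences were unchanged (Pdgfc 0.49, limma unadjusted p = 0.0229) and 371 genes were under 0.05. The median of the transducer list was 0.016 without Control 1 and -0.084 over the mean of each gene's probes, and that of the attenuators 0.084 without Control 3. Signal near background limits Pdgfd.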
